A study of Danio rerio with 170 samples.

Results

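The Hox genes of 48-hpf zebrafish embryos were followed through 33 chemical treatments, each set against its own DMSO group. Members were all genes whose symbol, looked up by NCBI GeneID, reads hox, a letter from a to d, a number and a final a or b. The table held 36 such genes among 21854. By the same rule, RefSeq (assembly GRCz12tu) names 49, and the other 13 were not analysed here. Of these 13, 12 lie inside the span of another Hox gene in that annotation, and hoxb8b is the exception. Of the 36 genes in the table, only hoxa4a lies inside another one, hoxa3a. Positions 9 to 13 of the clusters were therefore well covered, with 22 genes. Positions 1 to 3 had 10 genes, and positions 4 to 8 had only hoxa4a, hoxc6b, hoxb7a and hoxb8a.

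Hox genes encode homeodomain transcription factors that give cells of the embryo their place along the head-to-tail axis. They lie in clusters, and their order in a cluster follows the order of their expression in the body. Low-numbered genes are active from the hindbrain backwards, and high-numbered genes in the posterior trunk and tail. The number names the paralog position, the letter the cluster, and the final a or b the copy that was kept after a whole-genome duplication in fish. At this stage much of the Hox RNA of an embryo is made in the hindbrain and spinal cord, with further domains in mesoderm and, for the A and D clusters, in the pectoral fin buds. Proteins of the Pbx, Meis and Pknox families (TALE homeodomain proteins) bind DNA together with Hox proteins.

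RNA was sequenced from whole Tropical 5D wildtype embryos, which the study's methods describe as pools, at 48 hpf in 5 studies. The 10 flame retardant chemicals (FRCs) were TBBPA-DBPE (4 µM), TBBPA (4 µM), TBPH (72 µM), TDBPP (3 µM), TiBP (158 µM), IPP (19.8 µM), TPP (8 µM), BDE-47 (85 µM), TCEP (85 µM) and TCPP (85 µM), with 3 or 4 libraries each, against DMSO_FRC (0.64% DMSO, 4 libraries). The 10 AHR2 Activators were BbF (50 µM), BjF (14.9 µM), BkF (1.9 µM), DBahP (10 µM), DBaiP (5 µM) and Retene (12.2 µM) against DMSO_A (1% DMSO, 3 libraries), B[a]P at 10 and 1 µM against DMSO_PE50_AK (1% DMSO, 3 libraries), 7,12-B[a]AQ (10 µM) against DMSO_PE50_BG (1% DMSO, 3 libraries), and TCDD (1 ng/mL) against DMSO_TCDD (0.1% DMSO, 4 libraries). AHR2 is the main aryl hydrocarbon receptor of zebrafish. The 13 other chemicals were Acenaphthene, Fluoranthene and Phenanthrene (50 µM each) against DMSO_A, Carbazole, Anthracene, 9-MA, 2-MN and 1,5-DMN (50 µM each), 3-NF (1.9 µM) and 4h-CPdefP (16.2 µM) against DMSO_B (1% DMSO, 4 libraries), DBalP (dibenzo(a,l)pyrene, 10 µM) against DMSO_PE50_AK, and BEZO (10 µM, 2 libraries) and 9,10-PQ (1.2 µM) against DMSO_PE50_BG. All other treated groups had 3 or 4 libraries. The labels do not say whether libraries of a group came from separate exposures, so p-values measure the spread between these libraries.

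The 144 libraries held 6795594 to 28566824 reads on the tabled genes, with a median of 18023618. Values below are normalized values on the scale of reads, with a lower end of 0. Fold changes are log2, treatment minus DMSO, on log2(normalized value + 1), so changes of low genes are understated. A gene was called when limma's two-sided test, adjusted by Benjamini-Hochberg over all 21854 genes of that treatment, gave an adjusted p under 0.05. Counts of Hox genes at an unadjusted p under 0.05 in the same test have no background. All genes were not counted at that threshold, and the percentages of all genes refer to calls. All adjusted p-values below are from limma, each with its log2 fold change and standard error (SE). In whole embryos, fewer cells that make a transcript and less transcript per cell cannot be told apart. TBBPA library 2 had the lowest hoxb13a and hoxc12a values of its group, and TCEP library 2 the highest summed Hox value of its group. Calls in these groups are also given without library 2. Libraries were left out by number, so a fit without a treated library lacked that number in every treated group of its study. A fit without a DMSO library lacked that number in every DMSO group. Of the libraries left out, only the named one affected the fold change, while all of them affected the SE and adjusted p.

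Over the 33 treatments, 66 of 1188 gene-treatment pairs were called for Hox genes (5.56%), against 4.67% of the pairs of all genes. Lower calls numbered 56 and higher calls 10. The background was 2.22% lower and 2.46% higher. Of the 66 calls, 42 fell in only 2 treatments: DBalP with 24 lower and 2 higher, and TDBPP with 16 lower. In the other 31 treatments, 24 of 1116 pairs were called (2.15%), against 3.25% of all genes. In 21 treatments no Hox gene was called.

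**Figure D1:**
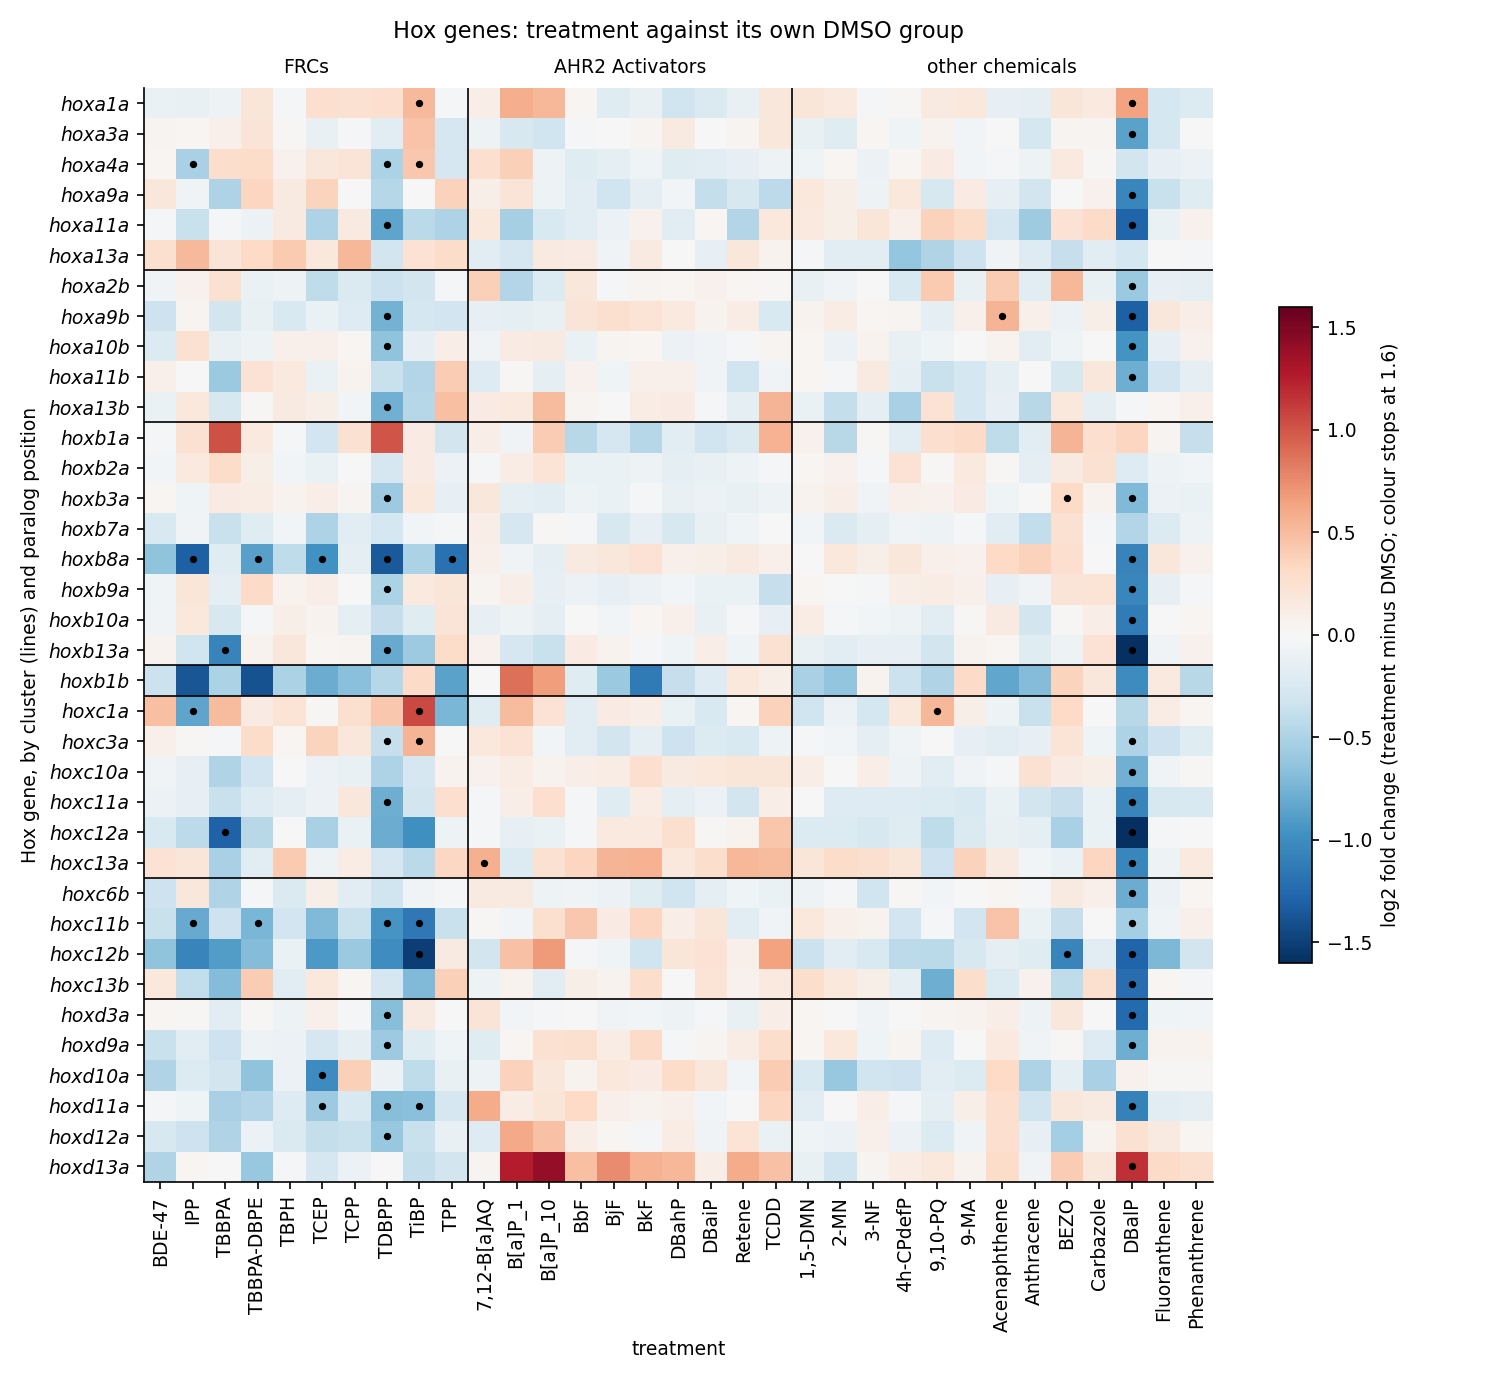
Log2 fold change (colour, treatment minus its own DMSO group) of the 36 Hox genes, in rows by cluster and paralog position, in 33 treatments, in columns by class. Black dots mark the 66 called pairs; the DBalP column holds 26 of them and the TDBPP column 16.

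Of the 36 genes, 31 were called in at least 1 treatment, and 59.1% of all genes were. For 17 of the 31, DBalP and TDBPP were the only treatments with a call. The 10 genes called in at least 3 treatments were hoxb8a, hoxc11b, hoxd11a, hoxb13a, hoxc12b, hoxa4a, hoxa9b, hoxb3a, hoxc1a and hoxc3a (27.8% of the members, against 22.6% of all genes). Of the 31 genes, 23 were only ever lower, hoxa1a and hoxd13a were only ever higher, and 6 went both ways. The genes without a call were hoxa13a, hoxb1a, hoxb2a, hoxb7a and hoxb1b. hoxb1b, a position-1 gene used in early hindbrain patterning, was near the lower limit of detection, with 0 to 10.4 per library and 18 of 144 libraries at 0.

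DBalP had the widest Hox response. The 24 lower genes were 66.7% of the members, and 14.3% of all genes were lower. The 2 higher genes stood against 13.7% of all genes. The median Hox log2 fold change was -0.79, while that of all genes was 0.02. The summed value of the 36 genes was 5811, 5500 and 5355 in DBalP libraries, against 8453, 8635 and 11172 in DMSO libraries. All DBalP libraries were below all DMSO libraries, and the same held for 24 single Hox genes, against 17.8% of all genes. DMSO library 3 had the highest sum, 11172. The SD of the sums in this DMSO group was 1520, against 105 to 664 in the other DMSO groups.

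The lower genes in DBalP included every measured member at positions 3, 9 and 11. At position 3, hoxd3a, a gene of the hindbrain and anterior spinal cord, had 335, 396 and 309 in DBalP libraries, against 783, 773 and 913 in DMSO libraries. The groups were far apart, and the log2 fold change was -1.25 (SE 0.11, adjusted p = 2.52e-06). hoxb3a, of the same paralog group, had 1570, 1484 and 1346 in DBalP libraries, against 2120, 2072 and 3109 in DMSO libraries. Its change was -0.71 (SE 0.13, adjusted p = 0.000958), with DMSO library 3 well above the others. hoxa3a (-0.85) and hoxc3a (-0.49) were lower too. hoxa3a, hoxb3a, hoxc3a and hoxd3a, like hoxb1b, are long transcription units within which other Hox genes lie. The counting mode and strand setting are not given in the sources used here. Reads could therefore be split between these genes and their neighbours, and their values are uncertain in that respect. Genes outside the family overlap further members in the RefSeq annotation used here. They are evx1 at the measured hoxaa genes, LOC101886298 at the hoxab genes, si:dkey-81p22.11 at hoxc1a, and calcoco1b at hoxc12b and hoxc13b. The same doubt applies to those members. Apart from the position-3 genes, only hoxa2b (-0.60) was called lower at positions 1 to 3.

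At positions 4 to 8, hoxb8a and hoxc6b were lower in DBalP. hoxb8a, a trunk gene, had 279, 295 and 310 in DBalP libraries, against 580, 530 and 762 in DMSO libraries, with no overlap. The log2 fold change was -1.06 (SE 0.13, adjusted p = 3.2e-05), and that of hoxc6b was -0.79. Without DMSO library 3, hoxc6b had -0.41 (adjusted p = 0.0506). hoxa4a and hoxb7a had values of -0.30 and -0.47 that did not pass the test.

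At position 9, where Hox expression turns from trunk to posterior trunk, all 4 genes were lower in DBalP. hoxb9a had 258, 342 and 309 in DBalP libraries, against 567, 626 and 681 in DMSO libraries. Its log2 fold change was -1.05 (SE 0.11, adjusted p = 1.18e-05). hoxa9b had 112, 129 and 141 in DBalP libraries, against 237, 282 and 472 in DMSO libraries, a change of -1.31 (SE 0.21, adjusted p = 0.000319). For both genes the highest DBalP library was below the lowest DMSO library. hoxd9a had 72.8, 72.2 and 73.1 in DBalP libraries, which were nearly identical, against 173, 133 and 85.4 in DMSO libraries, which were not. Its change of -0.78 (SE 0.22, adjusted p = 0.0173) was lost when DMSO library 1 or any DBalP library was left out (-0.55, adjusted p = 0.061, without DMSO library 1). hoxa9a, the fourth, had a change of -1.04.

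At position 10, hoxa10b, a gene of the posterior trunk, had 114, 117 and 105 in DBalP libraries, against 204, 220 and 233 in DMSO libraries. The libraries of each group were close together and the groups were apart, with a log2 fold change of -0.96 (SE 0.13, adjusted p = 0.000118). hoxb10a (-1.12) and hoxc10a (-0.76) were lower as well, and hoxd10a had a value of 0.07 that did not pass the test.

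All 5 genes at position 11, which pattern the posterior end of the trunk, were lower in DBalP, by -0.55 to -1.28. hoxc11a had 38.9, 39.1 and 35.6 in DBalP libraries, against 71.3, 66.4 and 108 in DMSO libraries. This gave -1.06 (SE 0.21, adjusted p = 0.00159) with no overlap. hoxd11a had 20.6, 28.6 and 45.5 in DBalP libraries, against 44.6, 83.3 and 72.5 in DMSO libraries. The highest DBalP library was just above the lowest DMSO library, and the change was -1.08 (SE 0.29, adjusted p = 0.0122). hoxa11a had only 8.89, 10.5 and 15.9 in DBalP libraries, against 22.8, 24.3 and 44.4 in DMSO libraries. Its change of -1.28 (SE 0.37, adjusted p = 0.0176) was not called with voom weights (-0.70, adjusted p = 0.236). For hoxd11a the call was lost without DBalP library 1 (adjusted p = 0.117) or 2 (0.0850), and for hoxa11a without DBalP library 1 (0.120) or 2 (0.100) or DMSO library 3 (0.0509).

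At positions 12 and 13, the tail end of the clusters, DBalP gave the largest falls and also a rise. hoxc12a had 53.5, 48.2 and 35.0 in DBalP libraries, against 150, 159 and 138 in DMSO libraries. The groups were widely separated, with a log2 fold change of -1.71 (SE 0.17, adjusted p = 6.34e-06), or 0.306 of the DMSO level. hoxb13a, a tail gene, had 22.1, 15.0 and 26.5 in DBalP libraries, against 64.3, 65.7 and 103 in DMSO libraries. At -1.82 (SE 0.28, adjusted p = 0.000252) it was the largest change of any Hox gene in any treatment. hoxc13a had 64.4, 48.2 and 46.7 in DBalP libraries, against 88.1, 107 and 137 in DMSO libraries, which gave -1.04 (SE 0.19, adjusted p = 0.000996). hoxc12b (-1.29) and hoxc13b (-1.22) were lower as well.

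The A and D cluster members at positions 12 and 13, which are known for their part in fin and limb bud outgrowth and in the hind end of the gut, were not among the lower genes in DBalP. hoxa13a, hoxa13b and hoxd12a had values of -0.29, -0.01 and 0.25 that did not pass the test. hoxd13a had 16.9, 18.1 and 17.9 in DBalP libraries, against 10.4, 4.49 and 8.10 in DMSO libraries. It was called higher at 1.17 (SE 0.35, adjusted p = 0.0225). However, hoxd13a was also high in the other treated libraries of this study, with 21.3, 19.5 and 22.4 at 10 µM B[a]P and 26.4, 16.3 and 15.2 at 1 µM B[a]P. Against the same 3 DMSO libraries, the changes were 1.41 at 10 µM B[a]P (SE 0.35, adjusted p = 0.0749) and 1.25 at 1 µM B[a]P (SE 0.35, adjusted p = 0.155), neither of which was called. The change at 10 µM B[a]P was called without DMSO library 1 (1.64, adjusted p = 0.0436) or 3 (1.48, adjusted p = 0.0317). Over 16 alternative settings it ran from 0.83 to 1.92, with adjusted p-values up to 0.557.

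hoxa1a, a position-1 gene of the hindbrain, was the other gene called higher in DBalP. It had 142, 158 and 172 in DBalP libraries, against 74.3, 117 and 114 in DMSO libraries, a change of 0.65 (SE 0.18, adjusted p = 0.0139). Its B[a]P libraries were also above the DMSO libraries, with 158, 128 and 151 at 10 µM and 153, 144 and 154 at 1 µM. DBalP minus 1 µM B[a]P was 0.06 for hoxa1a (SE 0.18, adjusted p = 0.852) and -0.09 for hoxd13a (SE 0.35, adjusted p = 0.901), and neither passed the test. Both higher calls were lost when any 1 DBalP library was left out, with adjusted p-values up to 0.127 for hoxa1a and 0.125 for hoxd13a, and that of hoxd13a also without DMSO library 2 (0.0767). With voom weights the hoxd13a call in DBalP was lost too (0.78, adjusted p = 0.0840).

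**Figure D2:**
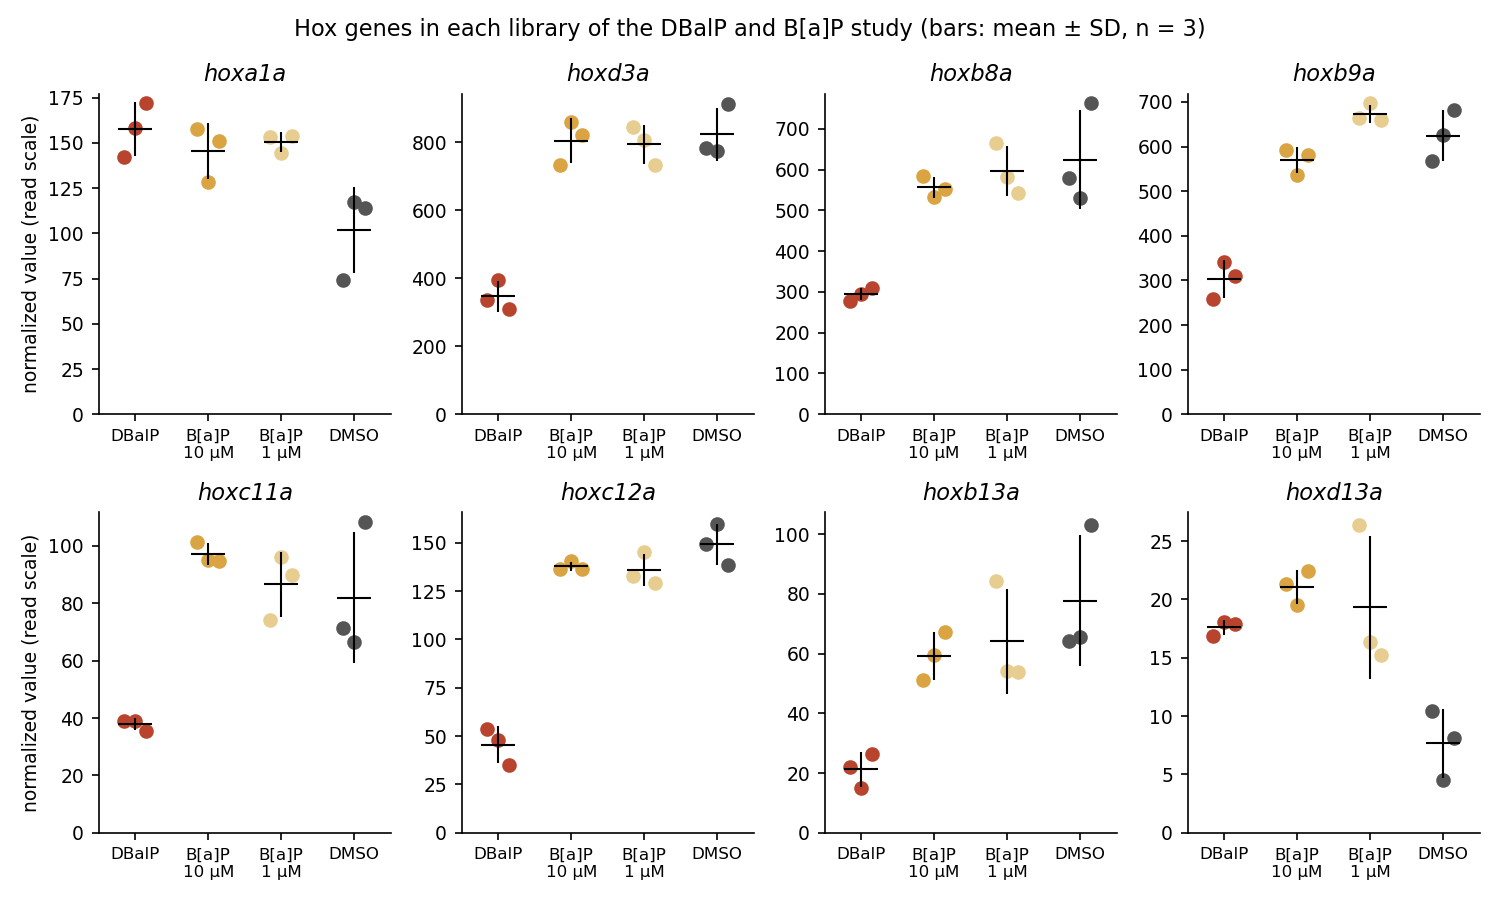
Normalized value (read scale, y axis from 0) of 8 Hox genes in each library of the DBalP and B[a]P study, with the mean and SD of 3 libraries per group. In hoxd3a, hoxb8a, hoxb9a, hoxc11a, hoxc12a and hoxb13a the DBalP libraries lie below all others, while in hoxa1a and hoxd13a the DBalP and B[a]P libraries lie together above DMSO.

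The lane is tied to the group in this study. All DBalP and 1 µM B[a]P libraries were sequenced in lane 4, and all DMSO and 10 µM B[a]P libraries in lane 3. DBalP was therefore also compared with 1 µM B[a]P, in the same lane. In that comparison 23 Hox genes were lower (13.1% of all genes were) and 0 were higher (9.82% of all genes), with a median of -0.81. Of the 24 genes lower against DMSO, 21 were also lower against 1 µM B[a]P. hoxa11a, hoxa2b and hoxc11b were not, and hoxa4a and hoxc1a were lower only against 1 µM B[a]P. Both comparisons use the same DBalP libraries. 1 µM B[a]P against DMSO, which differ in lane, gave 0 Hox calls (0.183% of all genes), with 6 Hox genes at an unadjusted p under 0.05 and 0 calls with voom weights.

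By position, the median log2 fold change in DBalP was -0.55 over positions 1 to 3, -0.63 over positions 4 to 8 and -1.04 over positions 9 to 13. Per library, the posterior medians were -0.97, -1.01 and -0.92 in DBalP, against -0.10, -0.08 and 0.13 in DMSO. By cluster, the medians ran from -0.36 in hoxda to -1.01 in hoxcb, leaving aside hoxbb with its 1 gene. All 4 hoxcb genes and 5 of 6 hoxca genes were lower, against 3 of 6 hoxda genes. No test was made of differences between positions or clusters. Positions 1 to 3 include the long units named above, whose reads may belong in part to genes at positions 4 to 9. This limits the position medians of every treatment. Of the 26 calls in DBalP, 14 were kept in every fit that left out 1 library number. Beside the genes named above with such losses, the calls of hoxa2b, hoxc3a, hoxc6b, hoxc10a, hoxa11b, hoxc11b and hoxc12b were not kept.

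**Figure D3:**
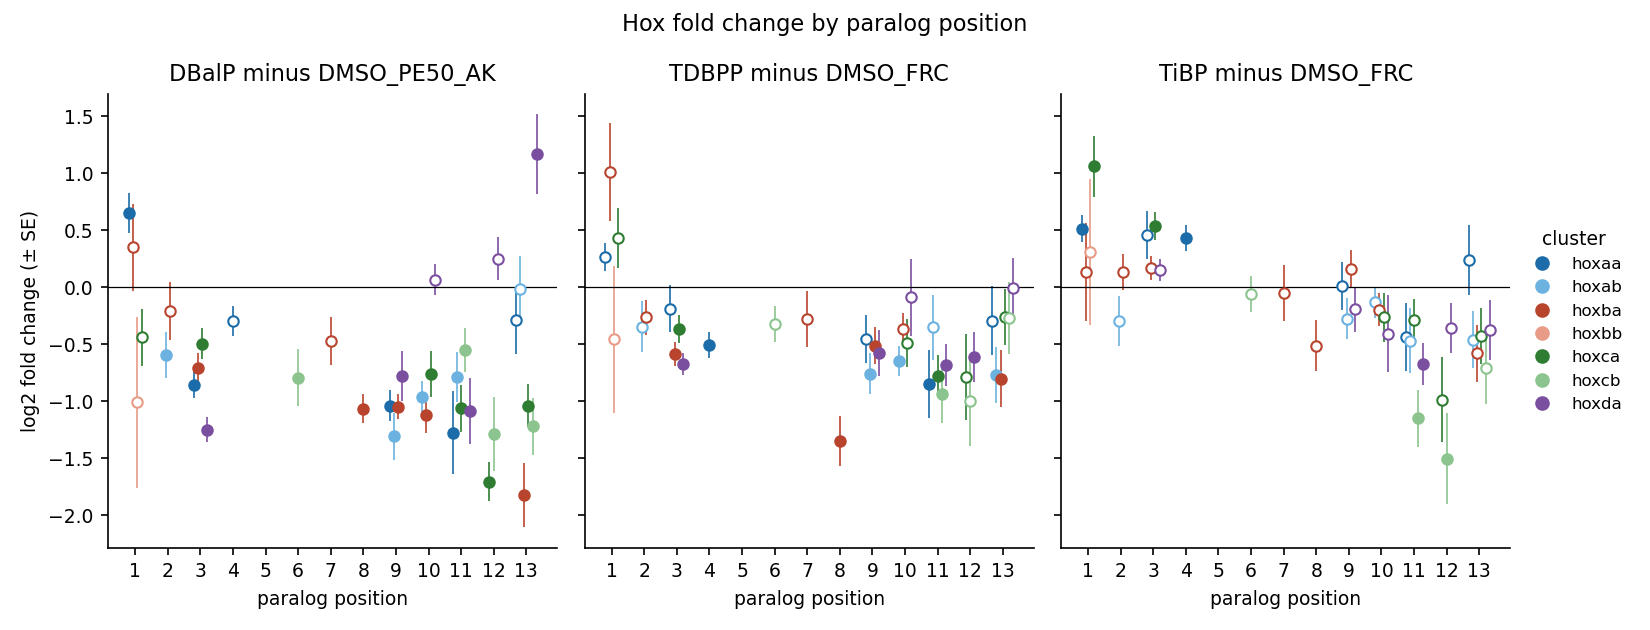
Log2 fold change (± SE, y axis) of each Hox gene against its paralog position (x axis) in DBalP, TDBPP and TiBP, coloured by cluster, with filled points for called genes. DBalP and TDBPP lie mostly below 0 from position 3 onward, and TiBP lies above 0 at most genes of positions 1 to 4 and below 0 at positions 11 and 12.

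TDBPP, a brominated organophosphate, had the second widest response, in another study with other controls. There were 16 lower Hox genes (44.4% of the members, against 11.8% of all genes) and 0 higher (13.7% of all genes). The unadjusted p was under 0.05 for 24 Hox genes. The median Hox log2 fold change was -0.47, and 0.08 over all genes. The summed Hox value was 9807, 8511, 9667 and 11122 in TDBPP libraries, against 13618, 14189, 14647 and 15177 in DMSO libraries. The median change was smaller than in DBalP. Of the genes called in TDBPP, hoxa4a, hoxb8a, hoxc11b, hoxd12a and hoxa13b fell further there than in DBalP, and the others fell less. Only hoxb8a was both called and beyond 1 on the log2 scale (10.4% of all genes were). Without DMSO library 4 there were 10 lower Hox genes (the share of all genes in that fit is not given here). The 9 genes called in every fit that left out 1 library number were hoxb3a, hoxd3a, hoxa4a, hoxb8a, hoxa9b, hoxa10b, hoxc11a, hoxc11b and hoxd11a.

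hoxb8a had 751, 522, 597 and 888 in TDBPP libraries, against 2612, 1415, 1648 and 1447 in DMSO libraries. DMSO library 1 was far above the rest, and all TDBPP libraries were below all DMSO libraries. The log2 fold change was -1.35 (SE 0.22, adjusted p = 1.49e-05), and -1.15 (adjusted p = 0.000274) without DMSO library 1. hoxd3a had 674, 602, 621 and 682 in TDBPP libraries, against 941, 993, 1074 and 1116 in DMSO libraries. With its narrow groups it had the lowest adjusted p of the family in TDBPP, at a change of -0.68 (SE 0.10, adjusted p = 1.47e-06). hoxb3a (-0.58) and hoxc3a (-0.36) were lower too, while hoxa3a had -0.19 and did not pass.

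In the posterior group, 11 of 22 genes were lower in TDBPP: hoxa9b, hoxb9a and hoxd9a, hoxa10b, hoxa11a, hoxc11a, hoxc11b and hoxd11a, hoxd12a, and hoxa13b and hoxb13a. hoxc11b had 57.4, 45.6, 69.6 and 58.6 in TDBPP libraries, against 107, 94.9, 121 and 121 in DMSO libraries. The groups did not overlap, and the change was -0.94 (SE 0.25, adjusted p = 0.00507). hoxb13a had 36.8, 25.4, 39.4 and 36.6 in TDBPP libraries, against 52.8, 44.8, 77.3 and 71.6 in DMSO libraries. That change was -0.80 (SE 0.25, adjusted p = 0.0144), again with no overlap. hoxc12a (-0.79), hoxc12b (-1.0) and hoxb1a (1.01) had sizeable values that did not pass the test.

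The median in TDBPP was -0.30 over positions 1 to 3, -0.42 over positions 4 to 8 and -0.59 over positions 9 to 13. Of the 16 lower genes in TDBPP, 13 (81.2%) were also lower in DBalP, which is 54.2% of the 24 lower genes in DBalP. Of all 2586 genes lower in TDBPP, 1337 (51.7%) were also lower in DBalP, which is 42.9% of the 3120 lower there, and 66.7% of all Hox genes were lower in DBalP. Nothing was tested about the overlap. These comparisons share no libraries. hoxa4a, hoxa13b and hoxd12a were called lower only in TDBPP of the pair. hoxc12a, hoxa9a, hoxb10a and 8 further genes were called lower only in DBalP of the pair.

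**Figure D4:**
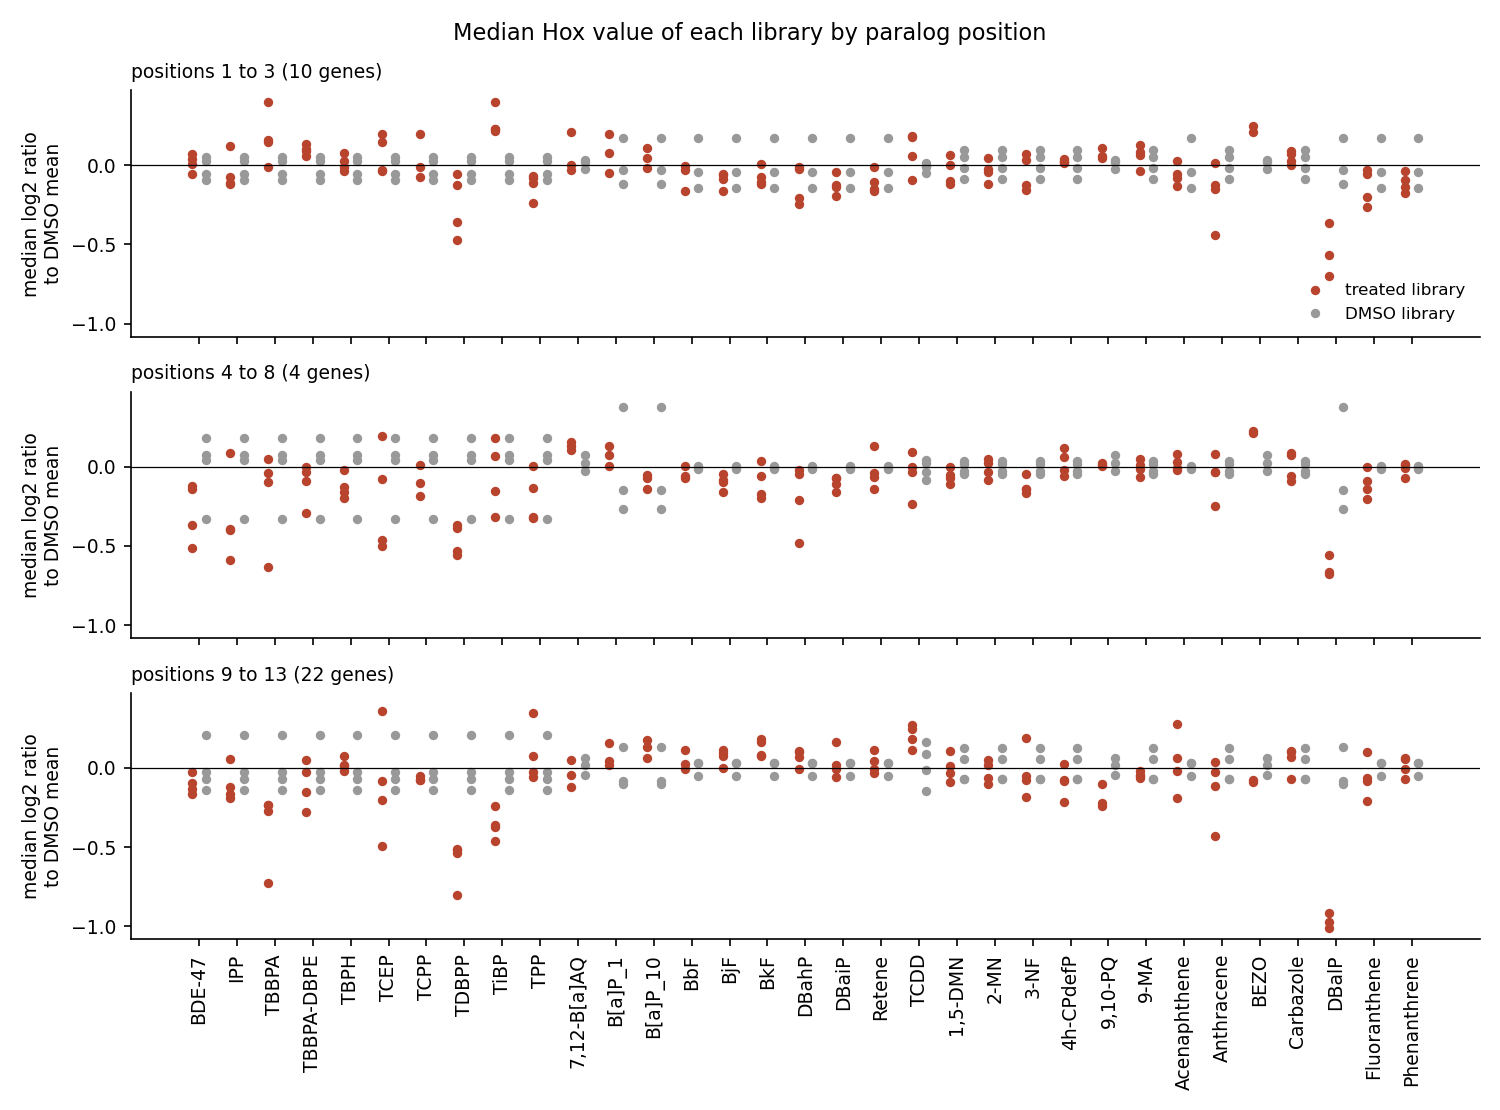
Median log2 ratio to the DMSO mean (y axis) over the Hox genes of 3 stretches of paralog positions, for each treated library (red) and each library of its DMSO group (grey), in 33 treatments. The DBalP and TDBPP libraries are the lowest at positions 9 to 13, apart from 1 TBBPA library. The TiBP, BEZO and 9,10-PQ libraries lie above DMSO at positions 1 to 3 and below it at positions 9 to 13.

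TiBP, a phosphate triester at 158 µM, had calls in both directions. There were 4 higher Hox genes (11.1% of the members, against 10.9% of all genes) and 3 lower (8.33%, against 8.00%), so the counts were near the background. The higher genes were hoxa1a, hoxc1a, hoxc3a and hoxa4a, all at positions 1 to 4. Other Hox genes lie inside hoxc3a, and hoxa4a lies inside hoxa3a, so their reads may be shared with genes at other positions. The lower genes were hoxc11b, hoxd11a and hoxc12b, at positions 11 and 12. The median was 0.24 over positions 1 to 3 and -0.39 over positions 9 to 13. Per library, the anterior medians were 0.40, 0.21, 0.23 and 0.23 in TiBP, against -0.09 to 0.05 in DMSO. The posterior medians were -0.24, -0.37, -0.36 and -0.46 in TiBP, against -0.14 to 0.21 in DMSO. Neither stretch overlapped between the groups, and the difference between stretches was not tested. Both stretches were also apart from DMSO in the same directions in BEZO and 9,10-PQ. Their anterior medians were 0.21 to 0.25 (BEZO) and 0.05 to 0.11 (9,10-PQ), against -0.02 to 0.03 in DMSO libraries. Their posterior medians were -0.09 to -0.08 (BEZO) and -0.24 to -0.10 (9,10-PQ), against -0.04 to 0.06 in DMSO libraries.

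hoxc1a, a position-1 gene that mammals have lost, had 135, 166, 155 and 120 in TiBP libraries, against 89.6, 63.5, 63.1 and 59.6 in DMSO libraries. The groups did not overlap, and the change was 1.06 (SE 0.27, adjusted p = 0.0041). hoxc3a had 2175, 1781, 2067 and 1868 in TiBP libraries, against 1193, 1403, 1390 and 1438 in DMSO libraries, a change of 0.54 (SE 0.12, adjusted p = 0.00167). hoxa1a had 420, 320, 408 and 430 in TiBP libraries, against 263, 265, 295 and 276 in DMSO libraries, a change of 0.51 (SE 0.12, adjusted p = 0.00237). All TiBP libraries were above all DMSO libraries for these 3 genes and for hoxa4a, whose change was 0.43 (SE 0.12, adjusted p = 0.00711). The hoxa4a call was lost without DMSO library 1 (adjusted p = 0.0573) or TiBP library 3 (0.0550).

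hoxc11b, the most clearly lower Hox gene in TiBP, had 53.9, 48.0, 45.1 and 50.3 in TiBP libraries, against 107, 94.9, 121 and 121 in DMSO libraries. The change was -1.15 (SE 0.25, adjusted p = 0.00116), and the groups did not overlap. hoxc12b was rare, with 9.21, 15.2, 7.88 and 2.60 in TiBP libraries, against 29.9, 18, 23.4 and 22.9 in DMSO libraries. Its change of -1.50 (SE 0.40, adjusted p = 0.0062) became -1.09 (adjusted p = 0.0976) without TiBP library 4. hoxd11a had a change of -0.67 (SE 0.18, adjusted p = 0.00718), and its call was lost without TiBP library 3 (adjusted p = 0.0792).

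hoxb8a was the Hox gene called in the most treatments, with 6 lower calls, 5 of them in FRCs. Beside TDBPP, it was lower in IPP, TPP, TCEP and TBBPA-DBPE. All 10 FRCs had a value below 0, from -0.14 in TCPP to -1.35 in TDBPP, and all were set against the same 4 DMSO libraries. Values were also below 0 in all 10 FRCs for hoxb7a, hoxd9a, hoxc11b, hoxd11a, hoxc12a and hoxd12a, so this was not particular to hoxb8a. In the 22 treatments that were neither FRCs nor DBalP, hoxb8a ranged from -0.15 to 0.37 with no call.

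hoxb8a had 432, 774, 821 and 855 in IPP libraries, against 2612, 1415, 1648 and 1447 in DMSO libraries. IPP lay wholly below DMSO, with a change of -1.31 (SE 0.22, adjusted p = 5.1e-05). In TPP libraries, hoxb8a was 1107, 610, 720 and 669, against the same DMSO values, a change of -1.19 (SE 0.22, adjusted p = 0.00327). In TBBPA-DBPE libraries, it was 947, 858, 1032 and 935, against the same DMSO values, a change of -0.87 (SE 0.22, adjusted p = 0.0101). TPP and TBBPA-DBPE also lay below all DMSO libraries. In TCEP libraries, hoxb8a was 824, 1513, 754 and 638, and library 2 lay inside the DMSO range, with a change of -0.97 (SE 0.22, adjusted p = 0.00508). Without DMSO library 1, the hoxb8a call was lost in TBBPA-DBPE (-0.67, adjusted p = 0.0895) and TCEP (-0.77, adjusted p = 0.052). It was also lost in TCEP without library 3 (adjusted p = 0.0618) or 4 (0.0736), and in TPP without library 3 (0.0540) or 4 (0.0585). In BDE-47, hoxb8a had -0.65 (adjusted p = 0.117) and in TiBP -0.51 (adjusted p = 0.0995), with every library of both below every DMSO library.

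**Figure D5:**
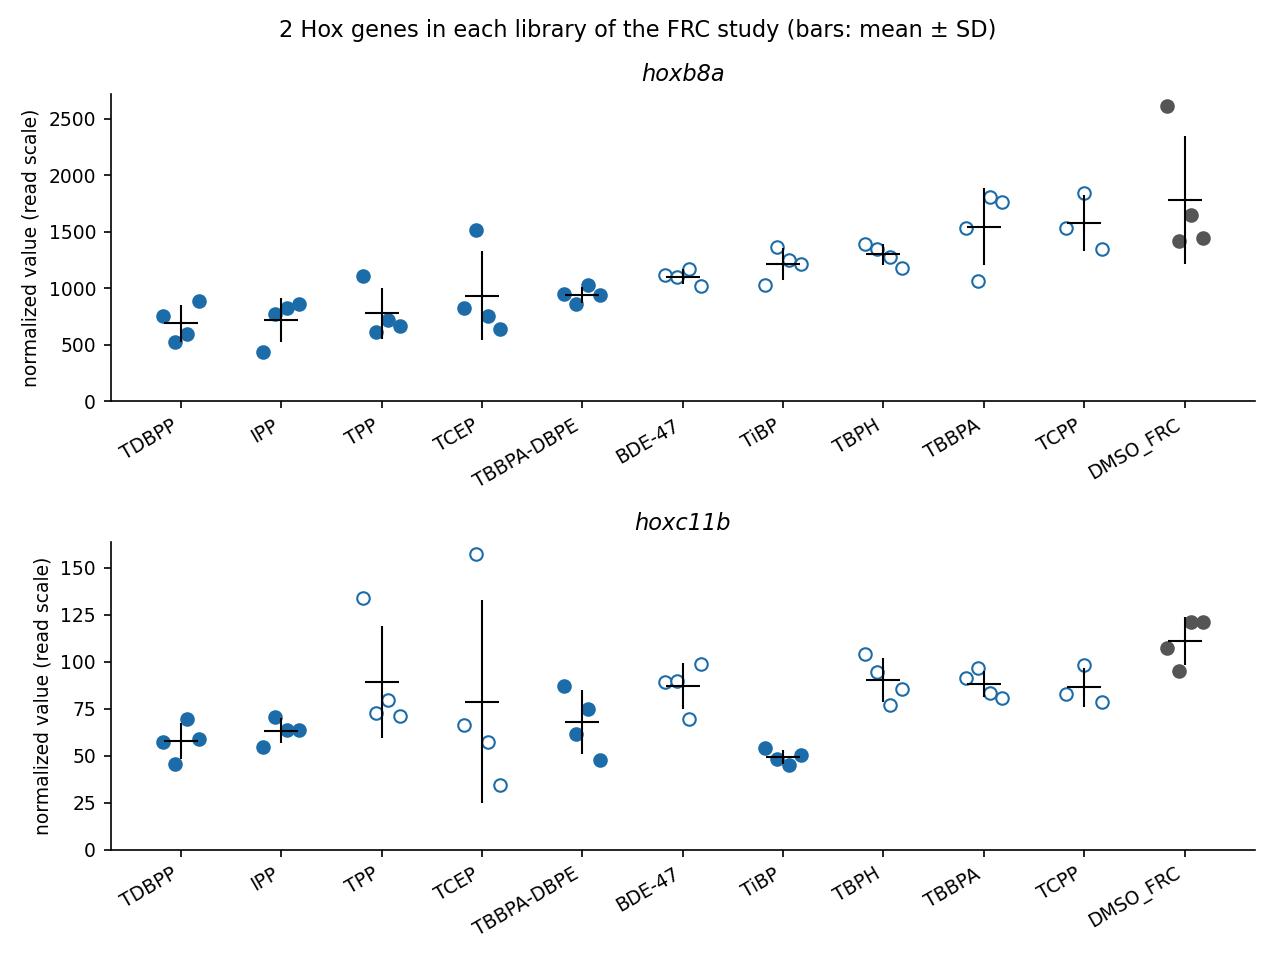
Normalized value (read scale, y axis from 0) of hoxb8a and hoxc11b in each library of the 10 FRCs and of DMSO_FRC, with mean and SD; treatments run in the order of their mean hoxb8a value, filled blue points mark called treatments and grey points DMSO. DMSO library 1 is the highest hoxb8a library at 2612, and the TDBPP libraries are at 522 to 888.

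hoxc11b, a gene of the posterior trunk, came next with 5 lower calls, in TDBPP, TiBP, IPP, TBBPA-DBPE and DBalP. The FRC values ran from -0.30 to -1.15, all below 0 against the shared DMSO libraries. hoxc11b had 54.8, 70.7, 63.8 and 63.7 in IPP libraries, against 107, 94.9, 121 and 121 in DMSO libraries, a change of -0.80 (SE 0.25, adjusted p = 0.0267). In TBBPA-DBPE, the change of -0.73 (SE 0.25) lay at the threshold, with an adjusted p of 0.04996. Both of these calls were lost when any of several library numbers was left out, with adjusted p-values up to 0.129 in IPP and 0.186 in TBBPA-DBPE. In TBBPA-DBPE the call was also lost with a lane block (adjusted p = 0.0568) or a pseudocount of 0.5 (adjusted p = 0.0501).

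The other FRCs gave few Hox calls. IPP had 4 lower (5.97% of all genes), which besides hoxb8a and hoxc11b were hoxa4a and hoxc1a. hoxa4a had 629, 613, 582 and 913 in IPP libraries, against 786, 979, 1017 and 1117 in DMSO libraries, with an overlap of 1 library and a change of -0.52 (SE 0.12, adjusted p = 0.00155). hoxc1a moved the other way from TiBP, at -0.85 (SE 0.27, adjusted p = 0.0269) in IPP, and this call was lost without DMSO library 1 (adjusted p = 0.113) or IPP library 1 (0.122) or 3 (0.114).

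TCEP had 3 lower Hox genes (4.61% of all genes): hoxb8a, hoxd11a (-0.58) and hoxd10a. hoxd10a had 25.0, 46.9, 6.77 and 12.6 in TCEP libraries, against 49.8, 28.7, 34.6 and 39.5 in DMSO libraries. Its change was -1.01 (SE 0.34), just inside the threshold with an adjusted p of 0.049996, and the groups overlapped. TCEP library 2 had the highest summed Hox value of its group, with 16548 against 12675 to 14183 in the other 3. Its size factor, by which reads are divided to give normalized values, was 0.981, against 1.33 to 1.56 in the other 3. With library 2 of every FRC group left out, 8 Hox genes were lower in TCEP and 1 was higher. The share of all genes called in that fit is not given here, so this count has no background. In that fit hoxd10a had -1.45 (adjusted p = 0.00126), hoxb8a -1.23 (adjusted p = 3.62e-05) and hoxd11a -0.71 (adjusted p = 0.00587). These adjusted p-values do not reflect TCEP library 2 alone. Library 2 was picked for its high summed Hox value, so lower Hox values without it follow in part from that choice. The fit without it is therefore no separate support for the TCEP calls. The hoxd10a call was lost in 6 of the 8 fits that left out 1 library number. Among them were those without TCEP library 3 (-0.58, adjusted p = 0.362) or 4 (adjusted p = 0.256) or DMSO library 1 (adjusted p = 0.182). It was also lost with a replicate block (adjusted p = 0.0546), a lane block (adjusted p = 0.0515) or 1 fit per treatment (adjusted p = 0.346). The hoxd11a call in TCEP was kept in 2 of these 8 fits, with adjusted p-values up to 0.181, and was lost with 1 fit per treatment (adjusted p = 0.278). None of the 3 TCEP calls was kept in every fit that left out 1 library number.

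TBBPA had 2 lower Hox genes (4.65% of all genes), hoxb13a at -1.07 (SE 0.25, adjusted p = 0.00416) and hoxc12a at -1.30 (SE 0.38, adjusted p = 0.0249). hoxb13a had 34.6, 13.8, 34.9 and 37.0 in TBBPA libraries, against 52.8, 44.8, 77.3 and 71.6 in DMSO libraries. hoxc12a had 64.5, 9.84, 100 and 70.5 in TBBPA libraries, against 134, 92.2, 131 and 111 in DMSO libraries. Library 2 was by far the lowest in both, and it also had the fewest reads in the FRC study, 10957931. Its size factor was 0.508, against 1.04 to 1.16 in the other TBBPA libraries. With library 2 of every FRC group left out, hoxb13a was still lower in TBBPA (-0.74, adjusted p = 0.0334) and hoxc12a was not called (-0.58, adjusted p = 0.193). With 1 fit per treatment neither was called (adjusted p = 0.280 for hoxb13a and 0.452 for hoxc12a). The hoxc12a call was also lost with voom weights (adjusted p = 0.0699).

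TBBPA-DBPE had 2 lower Hox genes (5.10% of all genes) and TPP 1 (1.61%). No Hox gene was called in BDE-47, TBPH or TCPP by limma, where 2.48%, 0.0686% and 0.458% of all genes were, and 2, 0 and 0 Hox genes had an unadjusted p under 0.05. Over all 10 FRCs, 35 of 360 Hox pairs were called (9.72%), against 9.47% of all genes. Without TDBPP this was 19 of 324 (5.86%), against 7.68% of all genes.

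The AHR2 Activators gave 1 Hox call in 360 pairs (0.278%), against 1.49% of the pairs of all genes. It was hoxc13a, a tail gene, higher in 7,12-B[a]AQ (3.72% of all genes were). hoxc13a had 133, 144 and 102 in 7,12-B[a]AQ libraries, against 77.8, 93.0 and 82.8 in DMSO libraries, with no overlap and a change of 0.57 (SE 0.16, adjusted p = 0.031). The call was lost without DMSO library 1 (adjusted p = 0.102) or 3 (0.0801) or 7,12-B[a]AQ library 1 (0.148) or 2 (0.172). Library 3 of 7,12-B[a]AQ was sequenced in lane 2, and the other 7,12-B[a]AQ and all DMSO_PE50_BG libraries in lane 1. TCDD had 0 Hox calls (1.55% of all genes were called). It had 6 Hox genes at an unadjusted p under 0.05, a threshold at which all genes were not counted. 10 µM B[a]P had 0 (1.09% of all genes) and 4 at an unadjusted p under 0.05. Between 10 and 1 µM B[a]P, 0 Hox genes were called (0.142% of all genes), with 3 at an unadjusted p under 0.05. The median Hox value of the 10 AHR2 Activators lay between -0.05 and 0.10. hoxd13a had values above 0 in 10 of 10 AHR2 Activators, from 0.05 to 1.41, none of them called. Several of these treatments share DMSO libraries. The sign was not particular to this class: of the 22 treatments that were neither FRCs nor DBalP, only 3 had a hoxd13a value below 0. DMSO_B minus DMSO_A was 0.33 for hoxd13a (SE 0.22, adjusted p = 0.878). The count of Hox calls in the AHR2 Activators varied with single library numbers: without control library 3 of each group, 9 Hox pairs were called. The share of all pairs called in that fit is not given here, so this count has no background.

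Among the other chemicals, 30 of 468 Hox pairs were called (6.41%), against 3.44% of all genes, and DBalP held 26 of them. In the remaining 12 treatments, 4 of 432 pairs were called (0.926%), against 1.39% of all genes. BEZO, with 2 libraries, had hoxb3a higher, at 2735 and 2726 in BEZO libraries, against 2203, 2150 and 2226 in DMSO libraries (0.32, SE 0.07, adjusted p = 0.0182). hoxc12b was lower, at 14.2 and 16.6 in BEZO libraries, against 33.2, 28.1 and 38.2 in DMSO libraries (-1.05, SE 0.27, adjusted p = 0.0355). Acenaphthene had hoxa9b higher (0.54, SE 0.13, adjusted p = 0.0417), with 580 in 1 library, against 373 to 392 in the others and 283 to 300 in DMSO libraries. Without that library the hoxa9b value was 0.39 (adjusted p = 0.474). 9,10-PQ had hoxc1a higher, at 138, 111 and 133 in 9,10-PQ libraries, against 77.9, 106 and 80.1 in DMSO libraries (0.53, SE 0.16, adjusted p = 0.0477). All DMSO_PE50_BG libraries were sequenced in lane 1 and all 9,10-PQ libraries in lanes 2 and 3. Lane and treatment cannot be told apart in that comparison. None of these 4 calls was kept in every fit that left out 1 library number. Of all genes, 1.69% were higher and 1.75% lower in BEZO, 0.494% were higher in Acenaphthene and 2.84% were higher in 9,10-PQ.

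Anthracene had 0 Hox calls (0.00% of all genes). Its values were below 0 for 32 of 36 Hox genes, with a median of -0.16 (all genes -0.01). The unadjusted p was under 0.05 for 8 Hox genes. Per library, the Hox medians ran from -0.43 to 0.02 in Anthracene, against -0.07 to 0.06 in DMSO_B, so the groups overlapped. The share of all genes below 0 is not given here. DMSO_B against DMSO_A gave 0 calls (0.0595% of all genes), 2 genes at an unadjusted p under 0.05 and values from -0.41 to 0.46. The summed Hox value was 13332 ± 105 in DMSO_B (SD, n = 4) and 13226 ± 575 in DMSO_A (SD, n = 3).

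Other lists of genes were read beside the Hox genes. Of all genes, 28.0% were called in DBalP, 25.5% in TDBPP and 18.9% in TiBP, in either direction. Lower calls were 14.3% of all genes in DBalP, 11.8% in TDBPP and 8.00% in TiBP. Higher calls were 13.7%, 13.7% and 10.9% in the same order. No list was tested against these shares. Of 14 TALE cofactor genes, 9 were lower in DBalP and 0 higher (median -0.60), among them meis2a (-1.11), pbx4 (-0.79), pbx3b (-0.72), pbx1a (-0.71) and pknox2 (-0.70). In TDBPP, 3 were lower and 0 higher (median -0.28), namely meis2b (-1.19), meis2a (-0.99) and pknox2 (-0.75). Summed TALE values were 20596 to 22316 in DBalP libraries, against 31690 to 40101 in DMSO libraries, and 12226 to 18273 in TDBPP libraries, against 21908 to 24226 in DMSO libraries. In TiBP, meis3 was higher (0.51) and meis2a (-0.45) and pknox2 (-0.44) were lower.

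Genes of spinal cord and hindbrain neurons were lower in the same treatments. Of 17 measured, 16 were lower in DBalP and 0 higher (median -0.63), and 13 were lower in TDBPP and 0 higher (median -0.86). mnx2a, a motor neuron homeobox gene, had -1.76 in DBalP and -1.05 in TDBPP. lhx3, of motor neurons and interneurons, had -1.26 in DBalP and -0.95 in TDBPP. olig2, of motor neuron progenitors, had -1.10 in TDBPP and -0.63 in DBalP, where it did not pass. Summed values of the list were 4301 to 4489 in DBalP libraries, against 6888 to 7458 in DMSO libraries, and 3675 to 6013 in TDBPP libraries, against 7930 to 8628 in DMSO libraries. The part of neural cell number in the Hox values was not tested.

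The falls reached homeobox genes of the head, where Hox genes are off. Of 25 forebrain and midbrain homeobox genes, 11 were lower and 0 higher in DBalP (median -0.50), and 11 were lower and 1 higher in TDBPP (median -0.46). otx2b, which marks forebrain and midbrain, had -1.31 in DBalP and -1.32 in TDBPP, and rx3, of the eye field, had -1.14 in DBalP and -1.39 in TDBPP. In TiBP, 8 of the 25 were lower and 0 higher (median -0.48), while only 2 of the 17 spinal cord and hindbrain genes were lower (median -0.09).

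Other tissues with Hox expression gave mixed counts. Of 15 trunk muscle genes, 3 were higher and 0 lower in DBalP (median 0.19), and 0 were higher and 1 lower in TDBPP (median 0.12). Their summed values were 662882 to 712714 in DBalP libraries, against 662576 to 679185 in DMSO libraries, and 493899 to 647132 in TDBPP libraries, against 736646 to 821422 in DMSO libraries. Of 14 fin bud genes, 3 were higher and 5 lower in DBalP, and 1 was higher and 6 lower in TDBPP. The lower ones included the fin fold genes and3 (-1.52 in DBalP, -1.32 in TDBPP) and and2 (-0.89 in DBalP, -1.30 in TDBPP), while tbx5a, which starts the pectoral fin, had 0.17 in DBalP and 0.46 in TDBPP and was not called. Of 13 tailbud genes, 2 were higher and 3 lower in DBalP, and 2 were higher and 1 lower in TDBPP.

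Of 11 listed regulators of Hox genes, 4 were lower and 0 higher in DBalP: gbx1 (-1.43), gdf11 (-1.06), a signal that sets posterior Hox expression in mammals, egr2b (-0.99), which acts in hindbrain segments, and mafba (-0.26). In TDBPP, 2 were lower, cdx1b (-1.05) and gbx1 (-0.86), and 2 higher, vgll2a (1.98) and fgf8a (0.58). The caudal genes cdx1a and cdx4, which activate trunk Hox genes, were not called in DBalP, TDBPP or TiBP. Of 23 retinoic acid pathway genes, 5 were higher and 5 lower in DBalP and 4 were higher and 5 lower in TDBPP. rdh10b, which makes the precursor of retinoic acid, was higher in both (1.28 in DBalP, 0.93 in TDBPP). The receptor genes rxrga (-0.91 in DBalP, -0.51 in TDBPP) and rxrgb (-0.79 in DBalP, -0.83 in TDBPP) were lower. In TiBP, 2 were higher, rargb (2.51) and rxrab (1.79), and 3 were lower.

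Of 20 Polycomb and trithorax genes, which keep Hox genes silent or active, 1 was higher and 5 lower in DBalP, and 1 was higher and 2 lower in TDBPP. The higher one was cbx7a in both (3.47 in DBalP, 4.71 in TDBPP), and it was also higher in TiBP (1.84). kmt2a, a trithorax gene, was lower in DBalP (-0.61) and higher in TiBP (0.55). Of 12 genes next to the Hox clusters, 2 were higher and 1 lower in DBalP (median -0.13), and 3 were higher and 2 lower in TDBPP (median 0.25). The lower ones were evx2 (-1.12 in DBalP, -1.58 in TDBPP), a homeobox gene beside hoxd13a, and evx1 in TDBPP (-0.81). In the annotation used here evx1 overlaps the measured hoxaa genes, so its reads could be split with theirs.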

How the data were processed

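The authors aligned reads to GRCz11 with STAR, counted them on genes with HTSeq, dropped genes at 0 in many samples, and deposited log2 values made by DESeq2 normalization and variance stabilizing transformation. STAR and DESeq2 versions are not given in the sources used here. The transformation was inverted, which gave whole reads (within 0.05) for 100% of values. Of 170 sample entries, those sharing lane and index (31 pairs, noise ratio 0.988 to 1.07, where 1 is counting noise) were averaged as 1 library, leaving 144. Tests were made with limma 3.58.1 (trend, R 4.3.3), fitted once for each study without a filter; the response was log2 of the normalized value with 1 added, and every chemical was set against its matching DMSO libraries. In a simulation of TDBPP with normal noise, 96 of 100 genes changed by 2 (log2) and 60 of 100 changed by 1 were called. Only these genes out of 21854 were changed, and none of them had a low mean. The real TDBPP comparison called 5571 genes, so these rates need not hold for it or for low Hox genes. Alternatives were other pseudocounts, a filter on low values, the deposited log2 values, voom weights, upper-quartile rescaling, and blocks for lane and replicate number. Blocks were not used in the studies of DMSO_PE50_AK and DMSO_PE50_BG. Further alternatives were other handling of shared entries, the scope of the fit and each library number left out.

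The members, the gene lists and the tests were chosen with earlier results of these data known. Per-library values are given for the 20 Hox genes called in most treatments, in the treatment with their largest change, and for the largest called change in each treatment with at least 3 calls; further genes were chosen after their values were seen. The design assumed normalized values, so tests ran on back-transformed values. Intervals for counting error were not used, since precision is set by 2 to 4 libraries per group.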

Additional observations from a re-analysis of the deposited data

Results flagged for a closer look

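In 5 of 50 sets of library values tested, 1 library stood apart from the others by Dixon's criterion, which chance meets in about 1 of 20 groups. hoxc1a was 89.6 in the highest DMSO_FRC library, with the next at 63.5. hoxa4a was 913 in the highest IPP library, with the next at 629. The summed Hox value was 13298 in the lowest 2-MN library (next 13716), 13688 in the highest BkF library (next 13132) and 13176 in the lowest DMSO_B library (next 13370).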

How the results depend on the processing

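No Hox fold change of a called gene reversed under any alternative run. Over single called genes, 966 alternatives kept the call and 169 lost it. Requiring an absolute log2 fold change over 1 left 25 of 66 calls in all, 9 in the FRCs, 0 in the AHR2 Activators, 16 in the other chemicals, 15 in DBalP and 1 in TDBPP, and 2 genes called in at least 3 treatments. With 1 fit per treatment, DBalP had 14 calls, the other chemicals 18, the AHR2 Activators 0 and B[a]P at 10 against 1 µM 1. The single AHR2 Activator call became 2 with a filter at a mean of 10, 3 on the deposited log2 values, 2 with a lane block, 9 with each entry as its own replicate and 7 with DMSO_A and DMSO_B pooled. With each entry as its own replicate, B[a]P at 10 against 1 µM had 1 call. The causes were not tested. Shares of all genes under these alternatives, or with library numbers left out, are not given here. The counts in this section therefore have no background.

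The DBalP median over positions 9 to 13 (-1.04) was -0.88 with pseudocount 10, -0.90 on the deposited log2 values, -0.91 with voom weights, -0.98 with each entry as its own replicate and -0.96 with reads of shared entries summed. That over positions 4 to 8 was -0.55 with each entry as its own replicate.

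Leaving out each library number in turn gave 44 to 63 calls in all, 24 to 45 in the FRCs, 0 to 9 in the AHR2 Activators, 17 to 29 in the other chemicals, 16 to 26 in DBalP, 10 to 17 in TDBPP, 0 to 1 for B[a]P at 10 against 1 µM, and 0 to 0 for DMSO_B against DMSO_A. Genes called in at least 3 treatments numbered 4 to 9. The DBalP medians ran from -0.64 to -0.46 over positions 1 to 3, -0.86 to -0.33 over positions 4 to 8 and -1.10 to -0.94 over positions 9 to 13. The TDBPP medians ran from -0.39 to -0.19, -0.55 to -0.35 and -0.65 to -0.51 over the same stretches.

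In the FRC study, libraries numbered 1, those numbered 2 and those numbered 3 each also shared a lane, and in the TCDD study libraries 1 and 2 ran in one lane and 3 and 4 in another. The deviations of same-numbered libraries correlated at a mean of 0.016 in the FRC study and -0.168 in the TCDD study. Single pairs ran from -0.687 to 0.646 in the FRC study and from -0.691 to 0.205 in the TCDD study. With a replicate block there were 65 calls in all and 34 in the FRCs. Pooling DMSO_A with DMSO_B, summing reads of shared entries, and the comparison of DBalP with 1 µM B[a]P were chosen after seeing the data. Low genes such as hoxb1b limit what could be detected.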
